A study of Mus musculus with 16 samples.

Results

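The matrix metalloproteinases (MMPs), the ADAMTS proteases, the ADAMTS-like proteins and the tissue inhibitors of metalloproteinases (TIMPs) were described in cortical bone and skeletal muscle of aged mice treated with an AhR antagonist or its vehicle. Members were the protein-coding genes whose symbol starts with Mmp, Adamts or Timp and a digit, or with Adamtsl. The bone table listed 48 of them among 38933 genes (20 MMP, 19 ADAMTS, 5 ADAMTS-like and 4 TIMP genes), and the muscle table listed 38 among 21011 genes (13, 17, 5 and 3). All 38 were also in the bone table, and 10 were listed in bone only: Mmp1a, Mmp3, Mmp8, Mmp13, Mmp20, Mmp21, Mmp27, Adamts13, Adamts19 and Timp1.

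All mice were female C57BL/6 animals, 18 months old when treatment began. They received BAY2416964 (BAY) at 30 mg/kg or vehicle (VEH, a mixture of ethanol, Solutol and water) by oral gavage on 5 days per week for 8 weeks. BAY2416964 blocks the aryl hydrocarbon receptor (AhR), a transcription factor that is activated by small molecules such as kynurenine. Bulk RNA-seq was done on 4 VEH and 4 BAY libraries of cortical bone and on 4 and 4 of the tibialis anterior, a hindlimb muscle. The bone shafts had been treated with collagenase after the marrow stromal cells were taken out, so each bone library holds the cells that were left in or on the shaft. The question was whether blocking AhR changes how these tissues express the enzymes that cut their matrix.

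MMPs are zinc-dependent proteases that are made as inactive proenzymes and cut collagens, gelatin and other matrix proteins once the propeptide is removed. ADAMTS proteases carry thrombospondin repeats and act on proteoglycans, procollagens and microfibril proteins, whereas the ADAMTS-like proteins have no catalytic domain and several bind fibrillin. TIMPs occupy the active site of these enzymes. In bone, MMP13 and MMP14 come mainly from osteoblasts and osteocytes, and MMP9 from osteoclasts and marrow leukocytes. In muscle, most of these genes are expressed by fibroblasts and vessel cells between the fibres.

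Several MMP genes lie side by side on mouse chromosome 9. The bone table held 7 of them between positions 7272514 and 7674980 of mm39 (402.5 kb), in the order Mmp13, Mmp12, Mmp3, Mmp1a, Mmp8, Mmp27 and Mmp20. The promoters of many of these genes carry the AP-1 motif, which is bound by Fos and Jun proteins, and 5 of the 7 had the letters TGANTCA in the window from 250 bases before to 50 bases after a RefSeq start. RefSeq gave 2 starts for Mmp12, and only the window of the second held the motif. These sequences are shown because genes of the AP-1 family had low unadjusted P values in muscle. Capitals mark the motif (20 bases on each side, plus strand, RefSeq on GRCm38.p6).
Mmp13 (chr9:7272459-7272505): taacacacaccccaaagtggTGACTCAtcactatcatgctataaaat
Mmp12 (chr9:7347310-7347356): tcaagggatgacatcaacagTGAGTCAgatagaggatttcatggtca
Mmp3 (chr9:7445756-7445802): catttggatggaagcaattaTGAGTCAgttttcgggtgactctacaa
Mmp1a (chr9:7464048-7464094): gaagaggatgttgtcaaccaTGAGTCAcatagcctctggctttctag
Mmp20 (chr9:7628116-7628162): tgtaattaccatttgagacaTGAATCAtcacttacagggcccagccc

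The motif began 35 bases before the start in Mmp13, 44 in Mmp12, 46 in Mmp3, 73 in Mmp1a and 95 in Mmp20. RefSeq gave 39 windows for 36 genes of these families. Of these windows, 8 (20.5%) held TGANTCA on either strand, against 7.81% of all 32851 windows, and all 8 belonged to genes of the chromosome 9 group (the other 3 were Mmp1b, Mmp7 and Mmp10, which are in neither table).

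AhR and its partner ARNT bind a core of GCGTG. This core was found on either strand in 14 of the 39 windows (35.9%) and in 32.4% of all windows, so its share among these genes was close to that of any promoter. The 150 bases before the start are shown for the 3 genes with a RefSeq window that were higher with BAY in muscle at an unadjusted P value under 0.05, read 5′ to 3′ on the minus strand that carries the genes, with GCGTG in capitals.
Adamts9 (chr6:92943535-92943684): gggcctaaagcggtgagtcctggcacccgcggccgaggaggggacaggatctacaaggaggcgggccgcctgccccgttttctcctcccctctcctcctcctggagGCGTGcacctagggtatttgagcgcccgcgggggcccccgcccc
Adamtsl4 (chr3:95687918-95688067): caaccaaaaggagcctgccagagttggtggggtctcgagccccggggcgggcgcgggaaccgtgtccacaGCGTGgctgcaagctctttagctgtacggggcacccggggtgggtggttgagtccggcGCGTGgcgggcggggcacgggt
Adamtsl5 (chr10:80348449-80348598): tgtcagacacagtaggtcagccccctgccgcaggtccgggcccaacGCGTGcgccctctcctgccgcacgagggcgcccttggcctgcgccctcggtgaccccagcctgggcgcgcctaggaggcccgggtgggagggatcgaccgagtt

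A match of letters is a description of the window and does not show that a factor was bound. Adamts10, Adamts6, Mmp19 and Adamts16 had no RefSeq window.

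Reads counted on genes ranged from 930306 to 6951908 in bone and from 6131905 to 9262351 in muscle, so that 3 reads were worth 0.432 to 3.22 CPM (reads scaled to the library total) in bone and 0.324 to 0.489 CPM in muscle. This floor covers counting error only. Olfactory receptor (Olfr) genes, which bone cells are not known to use, were read in bone at 0.13, 7.40, 1.39 and 5.75 CPM per kb of exon in VEH replicates 1 to 4 and at 3.08, 2.61, 2.64 and 8.97 in BAY replicates 1 to 4. They give the level at which a gene can be listed without being expressed, and DNA in the libraries was not told apart from other sources of such reads. Markers of skeletal muscle fibres summed to 9086, 231, 77.9 and 53.9 CPM in VEH bone. In BAY bone they summed to 34130, 37430, 1302 and 115 CPM. All 12 of these genes were higher with BAY at an unadjusted P under 0.05 (limma), beside 0.432% of all genes. Their exact permutation P values were 0.114 to 0.314. Osteoblast and osteocyte markers, all 14 of them listed, summed to 7522, 1596, 31660 and 23230 CPM in VEH and to 2065, 1796, 23450 and 2450 CPM in BAY. Of these, 13 had negative differences and 3 (Col1a1, Dmp1 and Sost) were lower at an unadjusted P under 0.05 (limma), beside 0.0719% of all genes. The exact permutation P values of the 3 were 0.314 to 0.4. In muscle, the fibre markers summed to between 105000 and 177400 CPM in every library.

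In cortical bone, the expressed members were mainly the gelatinases, collagenase-3, the collagenase-activating MMP14 and 2 inhibitors. The mean level per kb over the 8 libraries was at least 3 times the mean Olfr level (4 CPM per kb) for 6 of the 48 members: Mmp9 (45.8 CPM per kb), Mmp13 (43.4), Timp2 (25.1), Mmp2 (19.0), Timp3 (17.9) and Mmp14 (13.6). Mmp14 was just inside this limit at 3.41 times and Adamts1 just outside it at 2.68 times. The other 42 members, among them the ADAMTS-like genes at 1.95 to 3.85 CPM per kb and the orphan ADAMTS genes (Adamts16 to Adamts19) at 2.08 to 3.27, were on average below this limit, where expression and background could not be told apart from the mean. Single libraries differed in this respect. Against its own Olfr level, VEH replicate 1 had 29 members at 3 times or more, VEH replicates 3 and 4 had 13 and 7, and BAY replicates 1 to 3 had 4, 4 and 9, while VEH replicate 2 and BAY replicate 4 had 0.

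**Figure D1:**
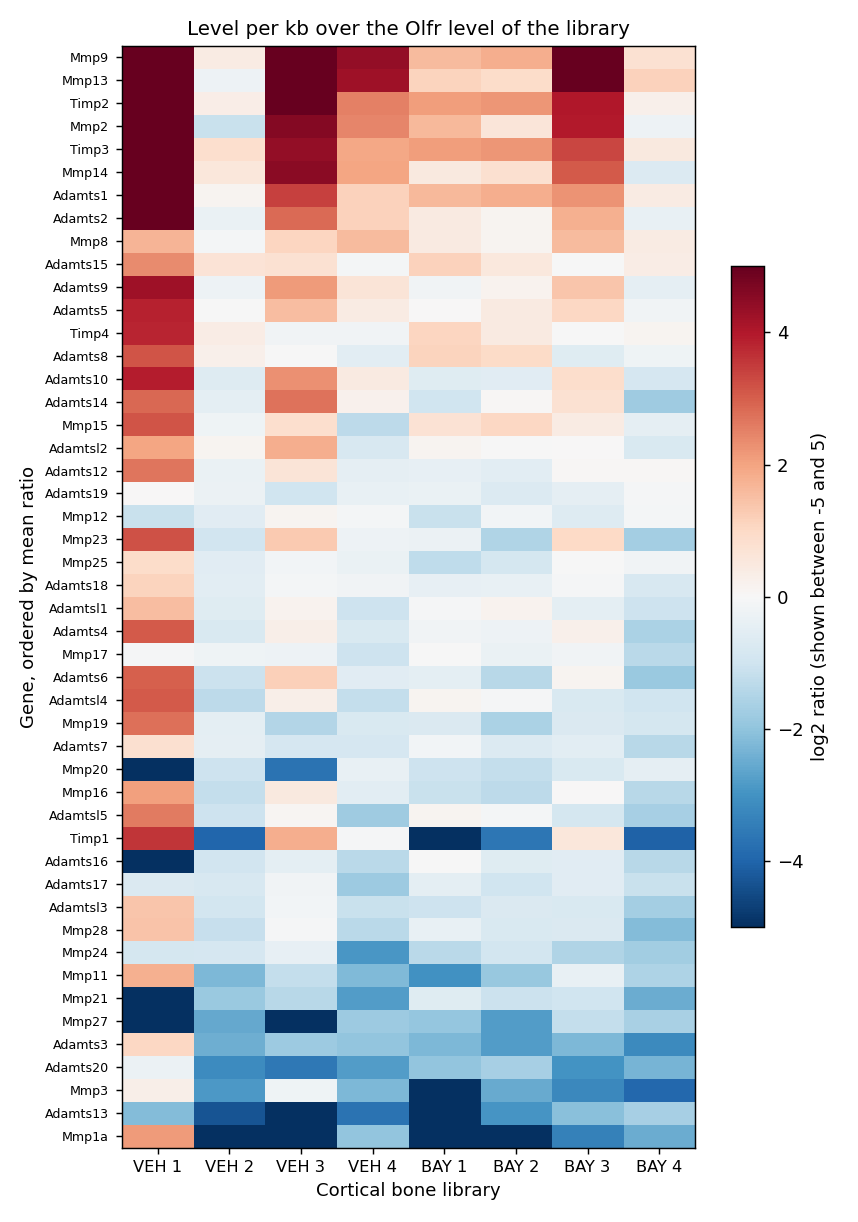
Level per kb of exon of each of the 48 members over the Olfr level of the same library, as a log2 colour scale limited to -5 and 5, for the 8 cortical bone libraries (columns). Genes are ordered by their mean ratio, with Mmp9 (11.5) at the top and Mmp1a (0.121) at the bottom. The columns of VEH replicate 2 and BAY replicate 4 hold no gene at 3 times the Olfr level, and the column of VEH replicate 1 holds 29.

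None of the 48 members differed between BAY and VEH in bone at an unadjusted P under 0.05 (limma on log2 of CPM + 1, two-sided), where 0.432% of all genes were higher and 0.0719% lower at that limit. The lowest P was 0.122, and the Benjamini-Hochberg adjusted P from limma was under 0.05 for 0 members and for 0.00257% of all genes. In 0 members did the VEH and BAY libraries not overlap, against 0.406% of all genes. Of the members, 31 had a positive and 17 a negative difference. Their median log2 difference was 0.331, close to the median of all genes (0.404), of which 78.9% had a positive difference. The SEs were 0.575 to 0.949 on the log2 scale, and the 95% interval of every member included a 2-fold difference in at least 1 direction.

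Both gelatinases had a wide spread within both groups. Mmp9, gelatinase B, is used by osteoclasts and is stored in neutrophils. It was read at 95.7, 36.8, 280 and 443 CPM in VEH and at 34.0, 34.3, 376 and 55.9 CPM in BAY, a mean of 214 ± 185 (SD, n = 4) against 125 ± 168. VEH replicates 3 and 4 and BAY replicate 3 were high, and the groups overlapped. The log2 difference was -1.03 (SE 0.70, limma P = 0.145, exact permutation P = 0.343). Mmp2, gelatinase A, was read at 80.4, 11.97, 117 and 109 CPM in VEH and at 33.1, 14.1, 146 and 26.9 CPM in BAY (log2 difference -0.68, SE 0.74, limma P = 0.358, exact permutation P = 0.543). The lowest library was VEH replicate 2 and the highest BAY replicate 3.

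Among the collagenases, which cut fibrillar collagen, only Mmp13 was above the Olfr limit. Mmp13 was read at 84.3, 16.6, 198 and 288 CPM in VEH and at 17.9, 13.2, 256 and 53.7 CPM in BAY (log2 difference -1.13, SE 0.73, limma P = 0.125, exact permutation P = 0.371). BAY replicate 3 lay within the range of the high VEH libraries, and VEH replicate 2 lay within that of the low BAY libraries. Mmp8, the collagenase of neutrophils, was read at 1.01 to 42.2 CPM, which was 1.71 times the Olfr level on average. Mmp1a was at or below 3.22 CPM in all 8 libraries. Along the chromosome 9 group, Mmp13 was at 10.9 times the Olfr level and the other 6 genes were between 0.121 and 1.71 times on average. Of the genes with the AP-1 motif shown above, only Mmp13 was above the limit. The part of the motif in these levels was not tested.

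Mmp14 encodes a membrane-anchored MMP that activates pro-MMP2 together with TIMP2. It was read at 41.6, 68.1, 196 and 139 CPM in VEH and at 26.4, 27.7, 138 and 34.4 CPM in BAY, and its P of 0.122 was the lowest among the 48 members (log2 difference -1.10, SE 0.71, exact permutation P = 0.171). The other 5 membrane-type MMPs were at 1.52 to 4.10 CPM per kb, near the Olfr level.

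Of the inhibitors, Timp2 was read at 71.1, 41.4, 288 and 147 CPM in VEH and at 57.7, 54.2, 190 and 48.4 CPM in BAY (log2 difference -0.52, SE 0.69, limma P = 0.449, exact permutation P = 0.514). Timp3, which binds to the matrix, was the most even of the expressed members, at 115, 107, 239 and 178 CPM in VEH and 107, 98.2, 219 and 103 CPM in BAY (log2 difference -0.29, SE 0.66, limma P = 0.666, exact permutation P = 0.457). Timp1 was read at 3.02, 0.92, 9.57 and 10.9 CPM in VEH and at 0, 0.41, 7.64 and 1.07 CPM in BAY. In VEH replicate 2 and in 3 of the BAY libraries this was 1 read or fewer. Its log2 difference was -1.32 (SE 0.88, limma P = 0.135, exact permutation P = 0.2). Timp1, Timp3 and Timp4 each overlap a synapsin gene (Syn1, Syn3 and Syn2) on the opposite strand, and whether the counting used strand is not given in the sources used here. On the same strand, Timp2 overlaps Cep295nl, which was read in bone at 5.47 to 42.3 CPM in VEH and at 18.3 to 24.6 CPM in BAY, and in muscle at 1.84 to 5.81 CPM. In bone VEH replicate 2 its 42.3 CPM stood beside 41.4 CPM of Timp2, so reads of the pair cannot be told apart with certainty. The study's methods describe a stranded library kit after the muscle extraction and name no other for bone. Syn3 was read in bone at 1.62 CPM in VEH replicate 1 and at up to 125 CPM in VEH replicate 2, so reads of Timp3 and Syn3 cannot be told apart with certainty.

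**Figure D2:**
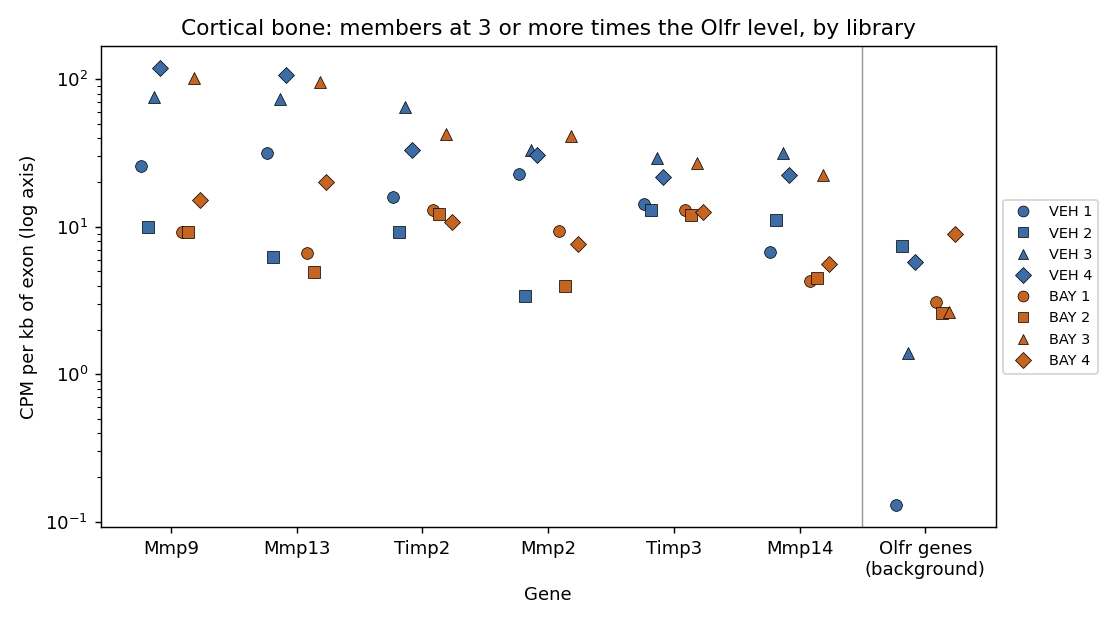
Level in CPM per kb of exon (log axis) of the 6 members at 3 or more times the mean Olfr level in cortical bone, with the Olfr level itself at the right. Each point is 1 library, coloured by group and shaped by replicate number. VEH replicates 3 and 4 and BAY replicate 3 are the 3 highest libraries for all 6 genes.

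The same libraries that were high in Mmp9, Mmp13, Mmp2, Mmp14, Timp2 and Timp3 were high in the summed markers of osteoblasts, osteoclasts and neutrophils. The 8 osteoclast markers summed to 164, 136, 544 and 665 CPM in VEH and to 87.6, 78.6, 763 and 232 CPM in BAY, and the 9 neutrophil markers to 204, 92.1, 516 and 1981 CPM in VEH and 61.2, 87.7, 1142 and 186 CPM in BAY. Single markers did not all follow these sums. Ocstamp (31.3 CPM) and Calcr (13.8 CPM) were highest in VEH replicate 2, and Oscar (19.35 CPM) and Ly6g (9.67 CPM) in BAY replicate 4. Of the osteoclast markers, 4 had a positive and 4 a negative difference. Among the neutrophil markers 1 (Ngp) was lower at an unadjusted P under 0.05 (limma), beside 0.0719% of all genes. In such bulk samples fewer cells of a type and less RNA per cell cannot be told apart, and the part of cell composition in the values of these members was not tested. Left out singly, 3 libraries changed the count of 0. Without VEH replicate 2, 7 members passed an unadjusted P under 0.05, with Mmp9, Mmp13, Mmp2 and Timp1 lower and Adamts16, Adamts17 and Adamts19 higher, when 7.19% of all genes were higher and 0.262% lower. Without BAY replicate 3, Mmp9, Mmp13, Mmp14 and Timp1 were lower, when 0.676% of all genes were higher and 0.172% lower. Without VEH replicate 1, Mmp14 and Adamts14 were lower, when 0.455% of all genes were higher and 0.272% lower. Over the single libraries left out, the log2 difference ranged from -1.82 (without BAY replicate 3) to -0.49 (without VEH replicate 4) for Mmp9 and from -0.98 (without BAY replicate 3) to -0.046 (without VEH replicate 3) for Timp2. It ranged from -1.97 to -0.58 for Mmp13, -1.42 to -0.23 for Mmp2, -0.56 to -0.068 for Timp3 and -1.65 to -0.75 for Mmp14. With the 3 libraries richest in fibre RNA left out, 0 members passed, against 0.519% of all genes higher and 0.0745% lower, the difference of Mmp9 was -0.19, and those of Mmp13 and Mmp2 turned to 0.24 and 0.21. When each library was centred on its median, the median difference of all genes moved by more than 0.1 (from 0.404 to -0.17) and 3 members, Mmp14, Adamts10 and Adamts14, passed as lower, when 0.331% of all genes were higher and 1.47% lower.

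The proteoglycanases (Adamts1, 4, 5, 8, 9, 15 and 20), the fibrillin-associated pair Adamts6 and Adamts10 and the procollagen N-proteinases (Adamts2, 3 and 14) gave 0 calls in bone. Adamts1 was the highest of them at 10.7 CPM per kb and among the most even members, with 35.5, 45.1, 81.1 and 70.6 CPM in VEH and 52.3, 50.9, 68.2 and 64.5 CPM in BAY (log2 difference 0.08, SE 0.70, 95% interval -1.30 to 1.47). Adamts2, which trims the N-propeptide of collagen I, was read at 43.4, 56.2, 93.9 and 122 CPM in VEH and at 39.3, 27.3, 86.6 and 65.6 CPM in BAY (log2 difference -0.54, SE 0.70). This difference ranged from -0.80 to -0.26 over the single libraries left out and from -1.64 to -0.19 over all alternatives. All 3 procollagen N-proteinases and both fibrillin-associated genes had negative differences, from -0.66 to -0.16, and none passed the test. Adamts5 (log2 difference 0.04), Adamts9 (-0.30), Adamts15 (0.70) and Timp4 (0.58) were at 1.26 to 1.42 times the Olfr level on average. Over the single libraries left out, the difference ranged from -0.67 to -0.045 for Adamts9 and from 0.14 to 1.09 for Timp4. In VEH replicate 1, which had the lowest Olfr level, Adamts9 was at 18.9 times, Adamts5 at 14.3 times, Timp4 at 14.1 times and Adamts15 at 5.09 times that level. Adamts15, for example, was read at 126 CPM in VEH replicate 2 and 123 CPM in BAY replicate 4, the libraries with the highest Olfr level, and at 6.90 CPM in VEH replicate 1.

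In skeletal muscle, 7 of the 38 members (18.4%) passed an unadjusted P under 0.05 (limma, two-sided) and none passed an adjusted P under 0.05, which 0.109% of all genes did. Higher with BAY were 5 members (13.2%): Adamts10, Adamts9, Adamts6, Adamtsl5 and Adamtsl4. All genes gave 7.16% in this direction. Lower with BAY were Mmp19 and Adamts16 (5.26% of the members, against 3.18% of all genes). The groups did not overlap for 2 members (Adamts10 and Adamts9), against 5.73% of all genes. The median log2 difference was 0.141 over the members, of which 29 were positive, and 0.0384 over all genes, of which 56.6% were positive. With each library centred on its median, 7 members were higher and 2 lower while all genes gave 5.81% and 6.05%.

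**Figure D3:**
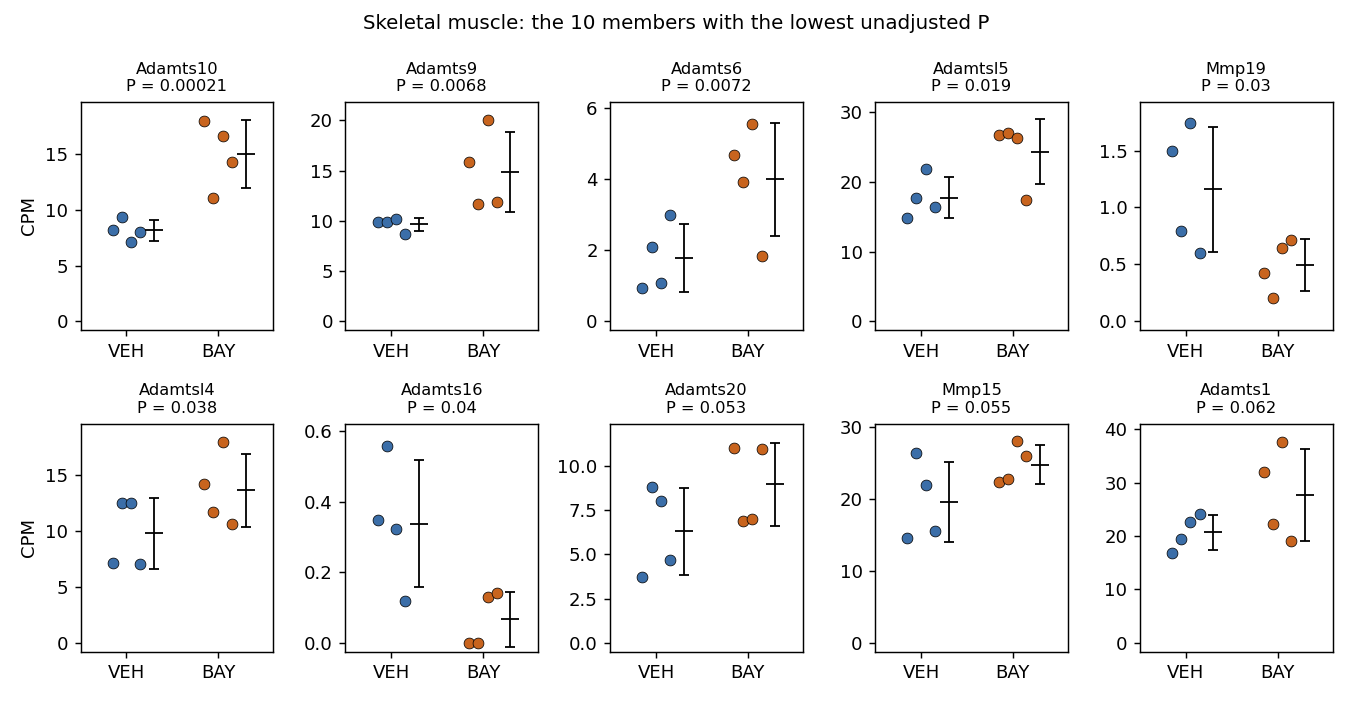
CPM in each skeletal muscle library of the 10 members with the lowest unadjusted P (limma), for 4 VEH and 4 BAY mice, with the mean and SD beside the points. Only Adamts10 and Adamts9 show groups that do not overlap, and Adamts16 lies below 0.6 CPM in all libraries.

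Adamts10, which binds fibrillin-1 and takes part in microfibril assembly, had the lowest P of the members. It was read at 8.15, 9.34, 7.13 and 7.99 CPM in VEH and at 18.0, 11.1, 16.6 and 14.3 CPM in BAY, a mean of 8.15 ± 0.91 (SD, n = 4) against 15.0 ± 3.03. Every BAY library was above every VEH library. The log2 difference was 0.79 (SE 0.18, limma P = 0.000207, adjusted P = 0.0885), and the exact permutation test gave its smallest possible P of 0.0286. The reads behind these values were 66 to 70 in VEH and 68 to 131 in BAY. Adamts6, its closest relative in the family, was read at 0.93, 2.09, 1.08 and 2.98 CPM in VEH and at 4.68, 3.91, 5.55 and 1.82 CPM in BAY. BAY replicate 4 lay within the VEH range and the other 3 above it (log2 difference 0.85, SE 0.29, limma P = 0.0072, adjusted P = 0.278, exact permutation P = 0.0857). Set against the mean level per kb of the 39 Olfr genes listed in the muscle table, Adamts10 was at 6.34 times that level, while Adamts6 (2.65 times), Mmp19 (1.68 times) and Adamts16 (0.21 times) were below the limit of 3 times. The bone level rests on 1135 Olfr genes, so this limit is not the same measure in both tissues. Under all 17 alternative settings tried, Adamts6 and Adamts10 kept an unadjusted P under 0.05.

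Adamts9, a protease that cuts versican and aggrecan, was read at 9.89, 9.90, 10.1 and 8.71 CPM in VEH and at 15.8, 11.7, 20.1 and 11.9 CPM in BAY. The VEH values lay within a narrow range and every BAY value was above them (log2 difference 0.54, SE 0.18, limma P = 0.0068, adjusted P = 0.277, exact permutation P = 0.0286). Without BAY replicate 3 its log2 difference was 0.40 and the call was lost. The other 6 proteoglycanases did not pass. Adamts1, an early response gene in many cells, was the highest of them at 4.43 CPM per kb and was read at 16.8, 19.5, 22.6 and 24.1 CPM in VEH and at 31.9, 22.2, 37.7 and 19.1 CPM in BAY (log2 difference 0.36, SE 0.19, limma P = 0.0624, exact permutation P = 0.257). BAY replicates 1 and 3 were above the VEH range and BAY replicates 2 and 4 were within it. Over the single libraries left out, the difference of Adamts1 ranged from 0.20 to 0.52. It passed as higher with array weights and without VEH replicate 3 or 4 or BAY replicate 2 or 4. Adamts20 had a log2 difference of 0.48 (limma P = 0.0529, exact permutation P = 0.171). Adamts4 and Adamts5, the aggrecanases of cartilage, had differences of -0.26 and -0.18.

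Of the 5 ADAMTS-like genes, all had positive differences and 2 passed, where 56.6% of all genes were positive and 7.16% passed as higher. Adamtsl5 was read at 14.9, 17.7, 21.8 and 16.5 CPM in VEH and at 26.7, 27.1, 26.3 and 17.4 CPM in BAY (log2 difference 0.43, SE 0.17, limma P = 0.0186, adjusted P = 0.364, exact permutation P = 0.0857). The first 3 BAY libraries were nearly equal and above all VEH libraries, and BAY replicate 4 was within the VEH range. Adamtsl4, whose protein binds fibrillin-1 in the fibres that suspend the lens, was read at 7.10, 12.5, 12.5 and 7.04 CPM in VEH and at 14.2, 11.7, 17.9 and 10.7 CPM in BAY (log2 difference 0.46, SE 0.21, limma P = 0.0379, adjusted P = 0.456, exact permutation P = 0.2). Adamtsl5 lost the call when VEH replicate 1 or any of BAY replicates 1 to 3 was left out (log2 differences 0.36 to 0.39), and Adamtsl4 when VEH replicate 1 or 4 or BAY replicate 1 or 3 was (0.33 to 0.43). Adamtsl4 also lost it with the deposited log2 values (0.50) and without a mean-variance trend (0.46). Adamtsl1, Adamtsl2 and Adamtsl3 had log2 differences of 0.09, 0.24 and 0.22.

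The 2 members lower with BAY had few reads. Mmp19, an MMP that can cut basement membrane proteins, was read at 1.5, 0.79, 1.74 and 0.60 CPM in VEH and at 0.42, 0.21, 0.65 and 0.71 CPM in BAY (log2 difference -0.51, SE 0.22, limma P = 0.0303, exact permutation P = 0.0857). These values correspond to 5 to 16.1 reads in VEH and 1.3 to 5.1 reads in BAY, and Tmem198b overlaps the gene on the opposite strand. Adamts16 had 1 to 4 reads in VEH and 0 or 1 in BAY (log2 difference -0.32, SE 0.15, limma P = 0.0404, exact permutation P = 0.0857), near the floor of 3 reads. With voom on the recovered reads neither kept the call, at log2 differences of -1.09 for Mmp19 and -1.53 for Adamts16. Mmp19 lost it with the deposited log2 values (-1.24), and Adamts16 lost it without a mean-variance trend (-0.32). With log2(CPM + 0.1) both kept it (-1.06 and -1.41), and Adamts16 kept it with the deposited log2 values (-5.33). Left out singly, VEH replicate 1 or 3 or BAY replicate 1 or 2 ended the call of Mmp19 (log2 differences -0.49 to -0.38), and VEH replicate 1, 2 or 3 or BAY replicate 1 or 2 that of Adamts16 (-0.32 to -0.24).

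None of the other MMPs of muscle passed the test. Mmp15, a membrane-type MMP, was the highest at 4.10 CPM per kb. It was read at 14.6, 26.4, 21.9 and 15.5 CPM in VEH and at 22.3, 22.7, 28.0 and 25.9 CPM in BAY (log2 difference 0.36, SE 0.18, limma P = 0.0551, exact permutation P = 0.143). Over the single libraries left out, this difference ranged from 0.23 to 0.505. Mmp15 passed as higher with array weights, median centring or quantile normalization, and without VEH replicate 2 or 3. Mmp2 was read at 8.85, 9.48, 22.5 and 6.68 CPM in VEH and at 7.43, 9.46, 8.26 and 9.4 CPM in BAY, and Mmp14 at 2.33, 3.90, 8.96 and 2.86 CPM and at 3.99, 5.06, 6.06 and 3.93 CPM. In both genes VEH replicate 3 was above all other libraries. Mmp9 was below 1 CPM in all 8 libraries, and the remaining 9 MMPs, Mmp19 included, had means of 0.0947 (Mmp25) to 1.93 CPM (Mmp28).

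Among the TIMPs, Timp3 was the most abundant member of muscle at 10.3 CPM per kb. It was read at 65.9, 73.1, 96.1 and 70.3 CPM in VEH and at 81.3, 83.3, 124 and 75.7 CPM in BAY (log2 difference 0.24, SE 0.16, 95% interval -0.09 to 0.57, limma P = 0.145, exact permutation P = 0.314). Over the single libraries left out, this difference ranged from 0.08 to 0.35. Timp3 passed as higher with array weights and without VEH replicate 3. Timp2 was read at 25.3, 28.9, 51.2 and 22.9 CPM in VEH and at 27.1, 33.9, 36.1 and 36.7 CPM in BAY (log2 difference 0.12, SE 0.19). Timp4, which is known from heart and muscle, was read at 13.4 to 20.3 CPM in VEH and at 15.8 to 21.9 CPM in BAY (log2 difference 0.10, SE 0.17). Syn3 and Syn2, which overlap Timp3 and Timp4, were at no more than 4.51 CPM in muscle.

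VEH replicate 3 of muscle, whose column in the table is marked as a replacement, stood apart in matrix and fat genes. Its 7 fibroblast and tendon markers summed to 253 CPM, against 64.1 to 84.8 CPM in the other VEH and 61.3 to 99.9 CPM in the BAY libraries. The fat cell gene Plin1 was at 37.9 CPM against 0.275 to 2.33 CPM, and Adipoq, Cfd, Lep, Cidec and Fabp4 were also highest in this library. Car3, on the same list, was lowest in it (838 CPM against 1206 to 1526 CPM). The sum of all 7 fat cell markers, mostly Car3, was therefore lowest there (1160 CPM against 1254 to 1565 CPM). Of these fibroblast markers 1 was higher and 2 were lower with BAY at an unadjusted P under 0.05, and of 7 fat cell markers 4 were lower, beside 7.16% of all genes higher and 3.18% lower. Mmp2, Mmp14, Timp2 and Adamts5 had their highest values in this library. Without it, 11 members were higher with BAY and 0 lower, against 8.48% and 1.89% of all genes: Adamts10, Adamts9, Adamts6, Adamtsl4 and Adamtsl5 as before, and Timp2, Timp3, Mmp14, Mmp15, Adamts1 and Adamts20. Without VEH replicate 1, or without BAY replicate 1, 3 members were called (Adamts10, Adamts9 and Adamts6, all higher), when all genes gave 4.29% higher and 3.5% lower, or 5.36% and 2.71%. The part of the fibroblast and fat genes in these differences was not tested.

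**Figure D4:**
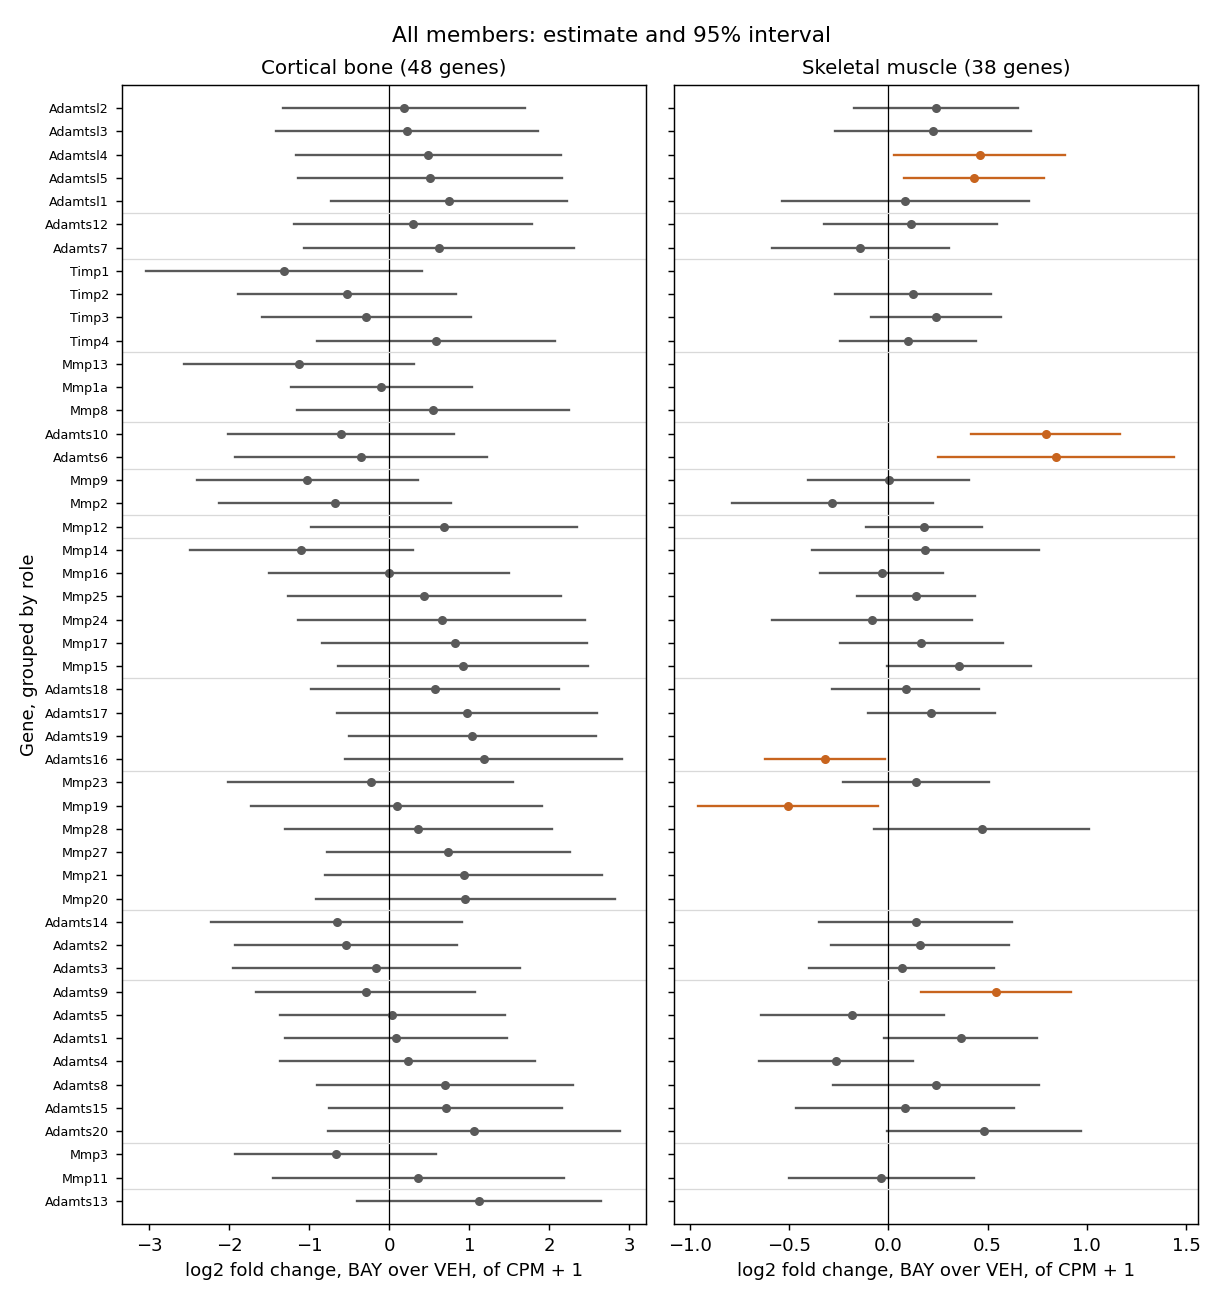
Log2 fold change of CPM + 1, BAY over VEH, of all members in cortical bone (left, 48 genes) and skeletal muscle (right, 38 genes), with the 95% interval from limma and genes grouped by role. Members with an unadjusted P under 0.05 are in colour. All bone intervals include 0, and the panels have different horizontal scales.

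The genes around this system were taken from lists of activators, other inhibitors, ADAM sheddases, further matrix proteases, substrates and transcription factors. In bone, 1 of 73 passed an unadjusted P under 0.05, beside 0.432% of all genes higher and 0.0719% lower: Col1a1, the main collagen of bone (log2 difference -1.37, limma P = 0.0499, exact permutation P = 0.4), which was read at 4028, 782, 16600 and 13080 CPM in VEH and at 1145, 942, 12880 and 1101 CPM in BAY. In muscle, 65 were listed, 6 were higher and 2 lower, beside 7.16% and 3.18% of all genes. Of 9 activators of latent proteases, Pcsk7, a furin-like convertase, was higher (0.40, limma P = 0.0325, exact permutation P = 0.0571). None of 11 inhibitors and clearance genes, 8 ADAM sheddases or 9 other matrix proteases passed.

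Of the 17 substrates listed in muscle, the basement membrane collagen gene Col4a2 was higher (log2 difference 0.43, limma P = 0.0111, exact permutation P = 0.0857), whereas Fbn1, which encodes the microfibril protein fibrillin-1, and Dcn, which encodes the collagen-binding proteoglycan decorin, were lower (-0.49, limma P = 0.0416, exact permutation P = 0.171, and -0.50, limma P = 0.0343, exact permutation P = 0.229). Fbn1 was read at 25.1, 28.9, 70.1 and 23.9 CPM in VEH and at 25.5, 22.7, 26.1 and 19.7 CPM in BAY. The groups overlapped, and VEH replicate 3 was far above the rest.

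Of the 11 transcription factor genes listed in muscle, 4 of the AP-1 family were higher with BAY. Fos was read at 1.63, 1.53, 2.81 and 0.60 CPM in VEH and at 7.71, 2.12, 9.81 and 7.43 CPM in BAY (log2 difference 1.48, SE 0.32, limma P = 0.000122, adjusted P = 0.0693, exact permutation P = 0.0571). BAY replicate 2 lay within the VEH range. Junb (1.18, limma P = 0.0004) and Jun (0.55, limma P = 0.000369) did not overlap between the groups (exact permutation P = 0.0286 for each, the smallest possible), and Fosl2 did (0.62, limma P = 0.00239, exact permutation P = 0.0571). The MMP genes with the AP-1 motif shown above were not read at a level at which a change could be seen in muscle: only Mmp12 of the chromosome 9 group was in the muscle table, at a mean of 0.131 CPM. Ahr itself had a log2 difference of -0.12 (limma P = 0.628, exact permutation P = 0.629).

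Levels in the VEH groups were set side by side per kb of exon. The tables were normalized separately, so no test was made between tissues. Mmp9 was at 57.7 CPM per kb in bone (9.94 to 120 over 4 libraries) and at 0.10 in muscle, Mmp14 at 18.0 and 0.73, and Mmp2 at 22.5 and 3.36. Timp2 (30.7 and 7.18) and Timp3 (19.6 and 9.37) were among the highest members in both tissues. Adamtsl5 was at 1.89 CPM per kb in bone and 2.76 in muscle, and Mmp15 at 3.06 and 3.63, but both were below the mean Olfr level of the VEH bone libraries (3.67 CPM per kb).

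**Figure D5:**
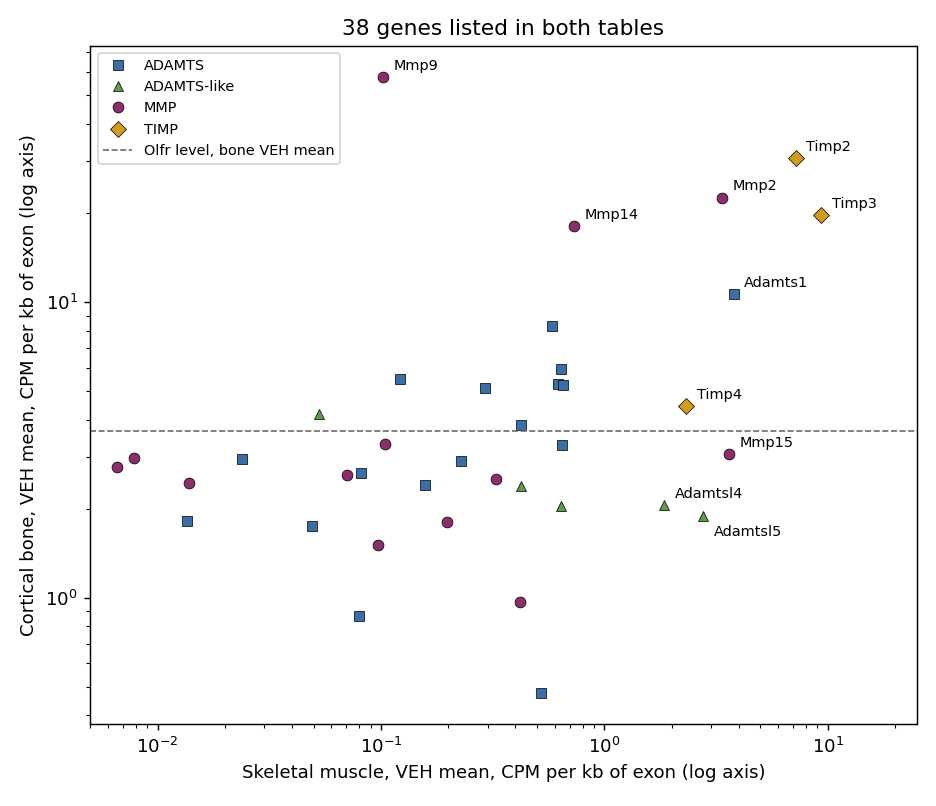
Mean level of the 4 VEH libraries in CPM per kb of exon, skeletal muscle (horizontal) beside cortical bone (vertical), for the 38 members listed in both tables, on log axes. The dashed line is the mean Olfr level of VEH bone, 3.67 CPM per kb. Timp2, Timp3, Mmp2 and Adamts1 are high in both tissues, and Mmp9 is the highest in bone and near 0.1 in muscle.

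None of the 7 members called in muscle passed the test in bone. There, all 7 were on average below 3 times the Olfr level, from 0.53 times (Adamts16) to 1.34 times (Adamts9). Expression and background could not be told apart at such levels. Adamts10, Adamts6, Adamts9, Adamtsl4 and Adamtsl5, higher in muscle, had log2 differences of -0.60, -0.36, -0.30, 0.49 and 0.51 in bone. Mmp19 and Adamts16, lower in muscle, had differences of 0.09 and 1.18 in bone, the latter the most positive of the 48. Adamts16 was called higher in bone with voom on recovered reads (3.24) and without VEH replicate 2 (1.78). With SEs of 0.69 to 0.92, the difference seen in muscle lay inside the bone interval of each of the 7. The difference between tissues was not tested.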

How the data were processed

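Per the labels and the study's methods, RNA of 16 libraries was sequenced on an Illumina NovaSeq, and the authors aligned reads with STAR (2.7.8a) to mm39, quantified Ensembl genes in Partek and deposited log2 values of CPM with an offset, 0.0001 in bone and 0.0004 in muscle. The log2 and the offset were undone. The value of 1 read was taken from the steps between low values (81.0% to 88.2% of values of 50 reads or fewer came out as whole numbers, within 0.02). The BAY and VEH libraries of a tissue were fitted with limma (3.58.1, R 4.3.3; lmFit, eBayes with trend) on log2(CPM + 1) with no filter and no covariate, two-sided, with Benjamini-Hochberg adjustment over all genes. Differences are therefore on the log2(CPM + 1) scale, which understates the change of low genes. Single members were also compared by exact permutation. Exon lengths came from GENCODE M39 (GRCm39), a later release than the authors' gene models, and matched 98.9% and 99.4% of the genes. Olfr levels are summed CPM over summed exon kb of 1135 genes in bone and 39 in muscle.

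Named were all members with an unadjusted P under 0.05, the 12 highest per kb in each tissue, Timp1 to Timp4, Mmp2, Mmp9, Mmp13 and Mmp14, and partner genes with an unadjusted P under 0.05. Other members are named after their values were seen. Members and lists were chosen with earlier results of these data known. The study's methods give 4 mice per group, so the libraries of a group were taken as separate mice. The fit was tested on simulated data, with known changes given to well-read genes. A log2 change of 1 was called in the right direction at an unadjusted P under 0.05 in 22.4% of them in bone and 97.9% in muscle. For a log2 change of 2 the shares were 70.6% and 100%. The alternatives were 0.1 or the deposited offset as pseudocount, a filter at a mean of 1 CPM or (in bone only) at 3 times the Olfr level, median centring, quantile normalization, no trend, array weights, voom on recovered reads, a block for the replicate number and the loss of each library in turn. Subtraction of the Olfr level and the loss of the 3 libraries richest in fibre RNA were added after seeing the data, in bone only. Python (3.11.15) with pandas (2.3.3) and matplotlib (3.10.9) was used for other steps.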

Additional observations from a re-analysis of the deposited data

Results flagged for a closer look

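Of 60 groups of 4 libraries (the named members in each tissue and treatment), 9 had a library whose gap to the nearest other one, divided by the range of the group, was above Dixon's 95% critical value. For normally distributed values, chance gives such a gap in about 1 of 20 groups. The gaps were taken on CPM, which need not be normal, so the 9 cannot be set against that share. In cortical bone, 7 of the 9 were in the BAY group with replicate 3 as the high library: Mmp9 (0.936), Timp2 (0.935), Timp3 (0.931), Mmp14 (0.928), Timp1 (0.859), Mmp2 (0.855) and Mmp13 (0.833). These genes are not independent of each other, since they are read in the same library, in which the osteoblast and osteocyte markers summed to 23450 CPM against 1796 to 2450 CPM in the other BAY libraries. In skeletal muscle, Timp3 had a high value in BAY replicate 3 (0.842) and Adamtsl5 a low one in BAY replicate 4 (0.922). No cause was tested.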

How the results depend on the processing

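In cortical bone, 0 members passed an unadjusted P under 0.05, and 13 of 20 alternatives left that count at 0. It was 3 with median centring (all genes 1.8%), 3 with quantile normalization (2.26%), 26 with array weights (38.2%), 1 with voom on recovered reads (3.68%), and 0 to 7 when single libraries were left out. With array weights, 1 member was higher and 25 lower, 24 of the 26 had an adjusted P under 0.05, as did 10017 of all 38933 genes (Mmp13 -3.18, limma, adjusted P = 5.7e-18), and 4.88% of all genes were higher and 33.3% lower, with weights per library from 0.111 to 8.66. In skeletal muscle, 7 members passed, and the count was 11 with array weights (9.31% of all genes higher, 2.48% lower), of which Adamts10 had an adjusted P under 0.05 (limma, adjusted P = 0.0356), and 3 to 11 when single libraries were left out. Adamts10 had an adjusted P of 0.0356 to 0.394 over all settings. The cause of these changes was not tested. The replicate number as a block gave 0 members in bone (0.691% of all genes higher, 0.113% lower) and 6 in muscle (6.6% higher, 3.46% lower), where Adamts16 lost its call at an unmoved log2 difference of -0.32. Libraries with the same number did not deviate together in every pair (correlations -0.0842 to 0.486 in bone and -0.103 to 0.035 in muscle), so the numbers were not taken as pairs.

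Some members that did not pass changed direction. Without the 3 libraries richest in fibre RNA, the log2 difference in bone was 0.24 for Mmp13 and 0.21 for Mmp2. With median centring it was -0.49 for Adamts1, -0.032 for Mmp8 and -0.53 for Adamts5, and -0.045 for Mmp9 in muscle. Quantile normalization gave -0.041 for Mmp8 and -0.17 for Adamts5 in bone and -0.020 for Mmp9 in muscle. Array weights gave -0.33 for Adamts1, -1.69 for Mmp8, -0.10 for Adamts15, -0.97 for Adamts5 and -0.051 for Timp4 in bone, and subtraction of the Olfr level gave -1.19 for Adamts5. With single libraries left out, the bone differences ranged from -0.12 to 0.27 for Adamts1, -0.26 to 1.22 for Mmp8, -0.012 to 1.32 for Adamts15 and -0.38 to 0.28 for Adamts5. In muscle they ranged from -0.0089 to 0.37 for Timp2, -0.48 to 0.053 for Mmp2, -0.026 to 0.18 for Timp4, -0.010 to 0.52 for Mmp14 and -0.14 to 0.16 for Mmp9. Depth limits members with few reads, such as Timp1 in bone and Mmp19 and Adamts16 in muscle.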
